A study of Mus musculus with 24 samples.

Results

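The genes described here are those whose symbols mark them as subunits of voltage-gated ion channels or their relatives. They were chosen by name alone, as every symbol that starts with Kcn and a letter, with Scn, a number and a or b, or with Cacna, Cacnb or Cacng. This gave 135 of the 26636 genes in the files, of which 95 were named as potassium, 14 as sodium and 26 as calcium channel genes. The name is wider than the function. The Kcnj (inward rectifier), Kcnk (tandem pore domain) and Kcnn (calcium-activated) potassium channels do not open by voltage, most Cacng proteins accompany AMPA-type glutamate receptors, Kcnq1ot1 is a long noncoding RNA, and Kcnrg encodes a regulator and not a channel.

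A voltage-gated channel is a pore in the cell membrane that opens when the membrane potential changes, and auxiliary subunits set how fast it opens and closes and how much of it reaches the surface. Sodium channels drive the upstroke of the action potential, potassium channels restore and hold the resting potential, and calcium channels couple voltage to transmitter release and to signalling inside the cell. Astrocytes and oligodendrocyte precursors, which cortical progenitors can form, also carry potassium channels, above all inward rectifiers and tandem pore domain channels.

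The samples were neural progenitor cells (NPCs) from the cortex of C57BL/6 mouse embryos at embryonic day 12, which were expanded in B27 supplement with bFGF, a growth factor, and taken at passage 3. (+)-JQ1, given as (+)-JQ-1 in the labels, is a small molecule that binds the bromodomains of the BET proteins, which read acetylated histones. Its mirror image (-)-JQ1, given as (-)-JQ-1, was the inactive control. Cells in differentiation medium received either enantiomer at 0.2 or 0.5 µM for 12 or 24 h, which makes 8 groups of 3 libraries, with the triplicates described as independent preparations of NPCs. All 8 groups shared the strain, the culture and the medium, no untreated group was analysed here, and a culture can hold several cell types. Below, a (+) or (-) library is one of cells given that enantiomer. The question of each main comparison was what (+)-JQ1 changed against its inactive mirror image at the same dose and time.

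The values were FPKM, fragments per kilobase of transcript scaled to the mapped reads of the library, so they allow levels to be compared between genes. Read totals are not known. Relative depth, read from the spacing of low FPKM values, ran from 0.939 to 1.052 over the 24 libraries, in each of which 16953 to 18201 genes were above 0. Of the groups at 0.2 µM for 24 h, the (-) library of replicate 1 and the (+) library of replicate 2 had 42.7% and 46.9% of their FPKM in Mir5105, a microRNA gene (others at most 6.69%), so the counts are also given without these 2 libraries. Progenitor markers were present in every library, with summed levels of 8 genes between 2780 and 7020 FPKM.

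In each comparison more channel genes were lower than higher in (+) libraries. Of the 135 genes, 51 reached 1 FPKM in at least 3 libraries and were tested with the 13801 genes that did so. With 0.2 µM for 12 h, 30 of the 51 were lower and 2 higher at an adjusted p under 0.05 (limma on log2(FPKM + 1), Benjamini-Hochberg over all genes tested), where 19.6% of all genes tested were lower and 8.23% higher. At 0.5 µM for 12 h, 32 were lower and 3 higher, beside 26.1% and 12.2% of all genes. With 0.2 µM for 24 h the counts were 23 and 5, beside 21.8% and 11.0%. At 0.5 µM for 24 h they were 32 and 4, beside 24.5% and 13.7%.

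The median log2 difference of the 51 genes was -0.50, -0.53, -0.22 and -0.54 in that order, against -0.07, -0.10, -0.07 and -0.05 over all genes tested. A difference is (+) minus (-) on the log2(FPKM + 1) scale throughout, which understates the change of genes with low values. The filter bears on these counts: 16 of the 51 genes reached 1 FPKM in 3 libraries only because of (-) libraries, and 1 only because of (+) libraries. With a filter on the mean over all 24 libraries (at least 0.5 FPKM), 31, 33, 24 and 34 of 55 genes were lower, beside 19.2%, 25.5%, 21.2% and 24.0% of all genes so tested. The same 16 genes all passed this filter too, so it cannot show what the counts would be without them. Without the 2 libraries rich in Mir5105, the counts of the 51 genes were 32, 34, 19 and 34 lower and 2, 3, 5 and 4 higher. Of all 13801 genes tested, 3059, 3972, 2698 and 3691 were then lower and 1417, 1982, 1743 and 2251 higher.

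Another scaling moved the balance over all genes, while the medians of the channel genes stayed below 0. Over all genes, 1136, 1682, 1523 and 1893 were called higher and 2710, 3599, 3006 and 3380 lower. After scaling by median ratios (each library divided by the median, over genes, of its ratio to the geometric mean of all libraries), these became 1794, 2624, 2500 and 2724 higher and 2277, 3017, 2455 and 2958 lower, and the all-gene median moved up by 0.08, 0.10, 0.09 and 0.08. The channel genes then stood at 25, 32, 22 and 29 lower and 2, 5, 6 and 4 higher, with medians of -0.42, -0.46, -0.15 and -0.46.

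**Figure D1:**
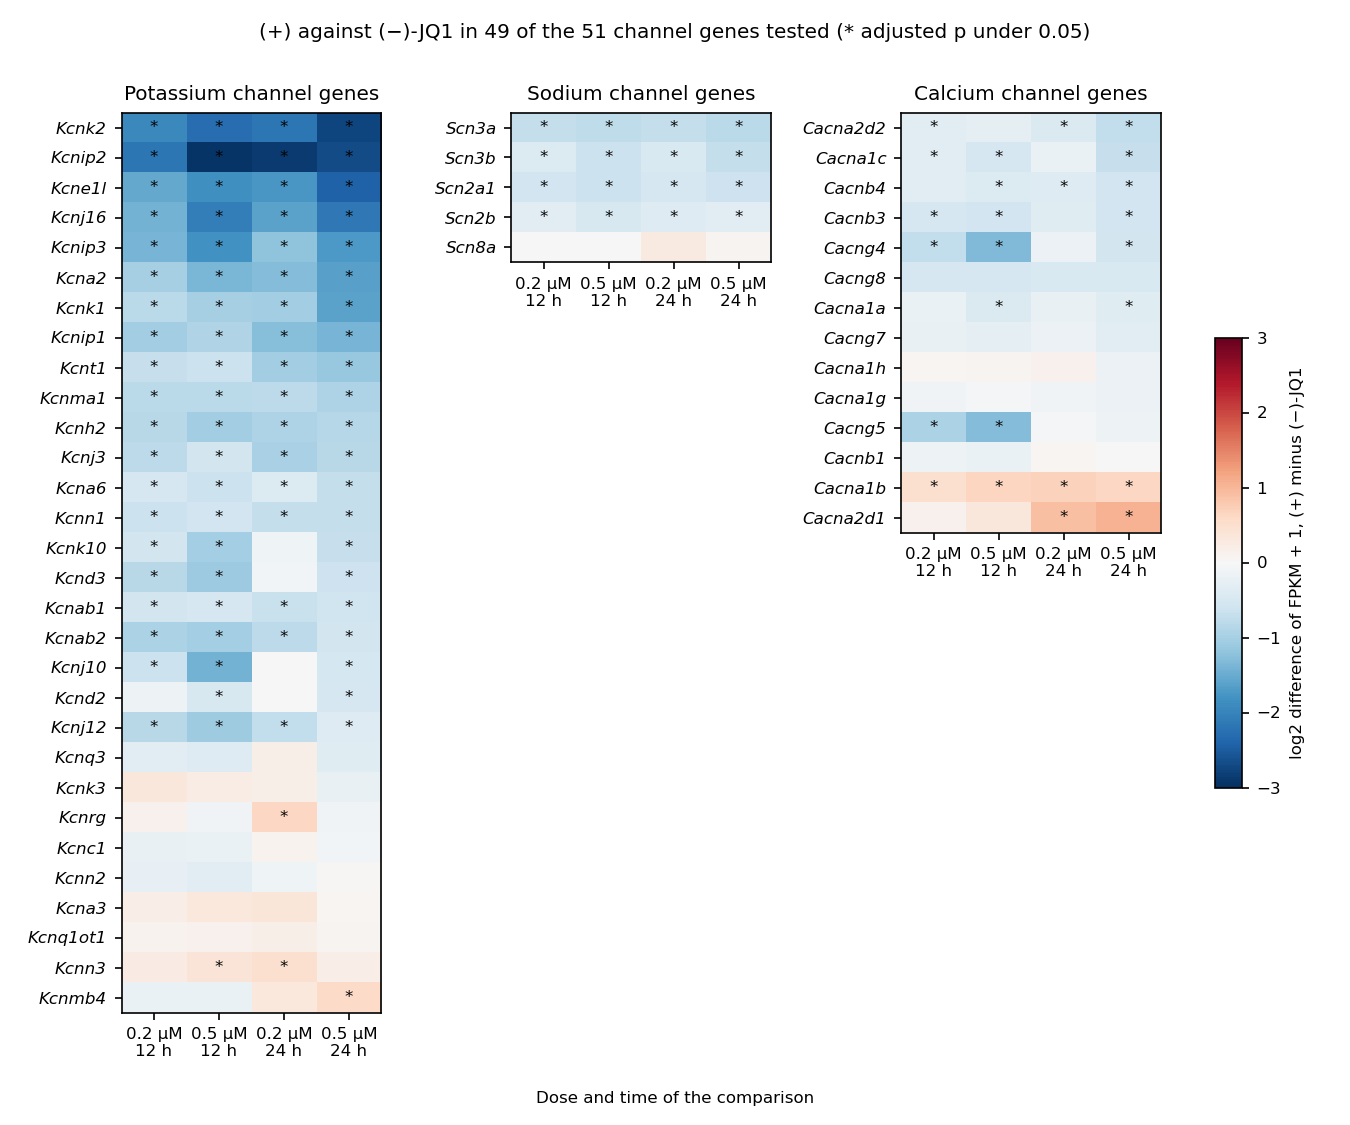
Log2 difference of FPKM + 1, (+) minus (-)-JQ1, for 49 of the 51 tested channel genes (rows) in the 4 comparisons of dose and time (columns), in panels for potassium, sodium and calcium channel genes, with blue for lower, red for higher and an asterisk for an adjusted p under 0.05. Blue fills most of the potassium panel and 4 of 5 rows of the sodium panel, while Cacna1b is red with an asterisk in all 4 columns.

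By class, the potassium genes, which were 32 of the 51 tested, accounted for most calls: 21, 22, 17 and 22 were lower and 1, 2, 3 and 2 higher. Of the 5 sodium genes tested, 4 were lower in each comparison. Of the 14 calcium genes, 5, 6, 2 and 6 were lower and 1, 1, 2 and 2 higher. Over the 4 comparisons, 21 genes were lower in every one (17 potassium, 4 sodium, 0 calcium), 2 were higher in every one, 12 were lower in 1 to 3, 4 were higher in 1 to 3, and 12 passed the test in none. Of all genes tested, 14.6% were lower and 5.84% higher in every one. Of the 21 channel genes, Kcnab1, Kcnh2, Kcnip1, Kcnj3, Kcnj12, Kcnk1, Kcnma1, Kcnt1, Scn2a1, Scn2b and Scn3a passed the filter through (-) libraries alone. The filter therefore bears on this count and its split by class as well. No channel gene was called in both directions. The comparisons at 12 and at 24 h share no libraries, and the same holds for the doses.

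Markers of the oligodendrocyte lineage and of astrocytes moved in the main direction of the channel genes. Neuron markers went both ways, and more progenitor markers were higher than lower. Of 10 oligodendrocyte lineage markers, 8, 9, 7 and 9 were lower in (+), and their summed level ran from 1720 to 1910 FPKM in (-) against 681 to 1200 in (+) libraries at 12 h, and from 1830 to 2520 against 493 to 1480 at 24 h. Of 7 astrocyte markers, 4, 6, 4 and 5 were lower, with sums of 995 to 1260 against 601 to 959 FPKM at 12 h and 1490 to 1780 against 1030 to 1190 at 24 h. Of 7 neuron markers, 2, 4, 1 and 2 were lower and 2, 3, 2 and 2 higher, with sums of 129 to 148 in (-) against 152 to 216 in (+) at 12 h and 167 to 237 against 230 to 316 at 24 h. Tubb3 weighed most in these sums. At 0.2 µM for 12 h its mean was 73.2 FPKM in (-) against 109.6 in (+), while that of Dcx was 28.9 against 14.25. The progenitor markers were higher for 3, 4, 2 and 6 of 8 genes and lower for 0, 0, 1 and 1.

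In bulk RNA, fewer cells of a type and less RNA per cell cannot be told apart, and the part of these marker changes in the channel results was not tested. No marker of these 4 lists was at 0 in all libraries. Of the pericyte and fibroblast list, 2, 3, 3 and 3 of 3 tested genes were lower, with sums of 1.58 to 3.41 FPKM in (+) and 4.04 to 10.3 in (-). The endothelial list (5 genes, 2 at 0 in every library) summed to at most 6.63 FPKM and its 1 tested gene was lower at 24 h at both doses. The muscle list summed to 0.736 to 2.29 FPKM in (+) against 8.5 to 14.8 in (-) at 12 h, and 0.208 to 0.45 against 1.72 to 3.88 at 24 h, with its 1 tested gene lower in all 4 comparisons. Microglia and erythroid markers summed to at most 1.15 and 0.293 FPKM, with 2 genes of each list at 0 everywhere and none tested.

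Few channel genes were abundant. Cacng7, an auxiliary protein of AMPA receptors, had the highest level, 77.3 ± 13.1 FPKM (SD, n = 12 (-) libraries). It was followed by Kcnj10 at 53.3 ± 10.3, Kcnd2 at 31.4 ± 3.31, Kcnk2 at 29.3 ± 12.2, Cacng4 at 28.7 ± 3.87, Kcnip3 at 28 ± 1.66 and Kcnd3 at 26.4 ± 4.33. The levels from Kcnd2 to Kcnd3 lay within 1 SD of their neighbours in this order, while Cacng7 and Kcnj10 stood above them by more than 1 SD. Over all 24 libraries, 13 of the 135 genes had a mean of at least 10 FPKM.

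Summed over their members, the potassium and sodium classes were lower in (+) libraries at each dose and time, while the calcium class overlapped at 0.2 µM for 24 h. The 95 potassium genes summed to 349, 319 and 324 FPKM in the (-) libraries and 228, 206 and 193 in the (+) libraries at 0.2 µM for 12 h. With 0.5 µM for 24 h the sums were 332, 351 and 324 against 186, 194 and 179. The groups did not overlap at either. The 14 sodium genes summed to only 9.24 to 11.4 FPKM in (-) libraries and 5.99 to 8.89 in (+) libraries. The 26 calcium genes summed to 148, 150 and 150 FPKM in (-) against 112, 107 and 124 in (+) at 0.5 µM for 24 h, without overlap, but at 0.2 µM for 24 h to 207, 125 and 168 against 138, 168 and 131, which overlapped.

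Of the 12 genes for auxiliary subunits of voltage-gated potassium channels, 6 were tested, and all 6 were lower in all 4 comparisons. Of these, Kcnip1 and Kcnab1 passed the filter through (-) libraries alone. The KChIP proteins, encoded by Kcnip genes, are calcium-binding partners of the Kcnd pores. Kcnip2 stood at 12.6, 10.8 and 13.9 FPKM in the (-) and 2.79, 0.938 and 2.63 in the (+) libraries at 0.2 µM for 12 h. At 0.5 µM it was 9.54, 10.3 and 12.8 against 0.7, 0.35 and 0.562 at 12 h. At 24 h it was 19.7, 18.6 and 18.1 against 1.12, 1.73 and 2.47 at 0.2 µM, and 12.1, 18.7 and 17.5 against 0.561, 3.98 and 1.31 at 0.5 µM. Every (-) library was above every (+) library. The log2 differences were -2.16, -2.95, -2.86 and -2.68, each ± 0.31 (SE, n = 3 against 3), with adjusted p from 1.76e-07 to 1.8e-05 (limma).

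Kcnip3, whose protein is also known as a calcium-dependent transcriptional repressor, stood at 28, 27.6 and 28 FPKM in (-) and 12.2, 10.0 and 8.22 in (+) libraries at 0.2 µM for 12 h. At 0.5 µM for 24 h it stood at 27.3, 27.5 and 32.3 against 6.08, 9.03 and 9.4. Its (-) libraries were close to each other at both times, and none of the 24 libraries overlapped between enantiomers. In log2 terms the differences were -1.39, -1.82, -1.21 and -1.73, each ± 0.14, with adjusted p of at most 1.53e-06. Kcnip1 was low: the (-) libraries ran from 0.941 to 2.78 FPKM and the (+) libraries from 0 to 0.208, with log2 differences of -1.03, -0.91, -1.27 and -1.38 (± 0.16).

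Kcne1l, now named Kcne5, encodes a single-pass subunit that modifies potassium pores. It stood at 23.9, 17.4 and 10.6 FPKM in (-) and 7.91, 5.24 and 2.91 in (+) libraries at 0.2 µM for 12 h. With 0.5 µM for 24 h the values were 23.7, 24.4 and 24.5 against 2.63, 4.13 and 4.57. The groups did not overlap in any comparison. The fitted log2 differences were -1.54, -1.83, -1.75 and -2.42, each ± 0.36. The cytoplasmic beta subunits Kcnab1 and Kcnab2, which bind Kcna pores, were lower by -0.56, -0.51, -0.66 and -0.60 (± 0.14) for Kcnab1, at 0.0866 to 0.532 FPKM in (+) against 0.433 to 1.54 in (-) libraries, and by -0.95, -1.01, -0.78 and -0.54 (± 0.17) for Kcnab2. The call of Kcnab2 at 0.5 µM for 24 h was lost without the first (+) or the third (-) library (adjusted p = 0.055 and 0.0544). Kcnab2 overlaps Nphp4 in the annotation, and reads from overlapping genes cannot be told apart here because the strand of the libraries is not given. This limit holds for 32 of the 51 tested genes, which overlap at least 1 other annotated gene, and only some are named here.

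To show the DNA at the starts of lower and of higher genes, the promoters of 3 genes lower in all 4 comparisons (Kcnip2, Kcne1l and the pore gene Kcna2) and of 3 genes higher in at least 1 (Cacna1b, Cacna2d1 and Kcnmb4) are printed 5′ to 3′ along the gene. Each of the 6 has a single start window in the RefSeq table for GRCm38.p6, from 250 bases before to 50 bases after the start. This build is not the mm9 of the alignments. Capitals mark the GC box GGGCGG on either strand (CCGCCC on the printed strand). The windows are chr19:45816014-45816313 (minus strand) for Kcnip2, chrX:142306149-142306448 (minus) for Kcne1l, chr3:107101317-107101616 (plus) for Kcna2, chr2:24763103-24763402 (minus) for Cacna1b, chr5:15934441-15934740 (plus) for Cacna2d1 and chr10:116473474-116473773 (minus) for Kcnmb4.
Kcnip2: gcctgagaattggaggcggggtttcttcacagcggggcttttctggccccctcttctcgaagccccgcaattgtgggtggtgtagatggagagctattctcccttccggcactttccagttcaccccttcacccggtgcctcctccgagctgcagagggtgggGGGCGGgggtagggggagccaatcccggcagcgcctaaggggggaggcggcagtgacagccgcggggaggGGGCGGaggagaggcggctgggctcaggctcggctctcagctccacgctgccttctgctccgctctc
Kcne1l: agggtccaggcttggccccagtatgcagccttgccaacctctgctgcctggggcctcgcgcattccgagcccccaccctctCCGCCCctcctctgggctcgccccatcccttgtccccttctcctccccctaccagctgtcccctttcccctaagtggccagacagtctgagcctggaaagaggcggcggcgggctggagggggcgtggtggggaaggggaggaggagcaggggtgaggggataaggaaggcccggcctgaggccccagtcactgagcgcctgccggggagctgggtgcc
Kcna2: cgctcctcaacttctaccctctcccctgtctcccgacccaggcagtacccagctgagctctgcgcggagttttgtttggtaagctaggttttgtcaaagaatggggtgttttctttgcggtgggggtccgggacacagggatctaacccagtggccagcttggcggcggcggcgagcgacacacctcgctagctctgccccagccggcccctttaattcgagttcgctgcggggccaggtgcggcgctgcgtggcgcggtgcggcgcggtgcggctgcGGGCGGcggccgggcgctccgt
Cacna1b: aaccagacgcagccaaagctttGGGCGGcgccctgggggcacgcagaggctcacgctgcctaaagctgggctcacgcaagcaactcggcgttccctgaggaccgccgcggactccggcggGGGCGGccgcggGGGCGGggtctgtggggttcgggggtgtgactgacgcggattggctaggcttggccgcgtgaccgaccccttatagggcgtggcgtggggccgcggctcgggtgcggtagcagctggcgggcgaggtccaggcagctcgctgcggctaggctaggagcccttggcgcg
Cacna2d1: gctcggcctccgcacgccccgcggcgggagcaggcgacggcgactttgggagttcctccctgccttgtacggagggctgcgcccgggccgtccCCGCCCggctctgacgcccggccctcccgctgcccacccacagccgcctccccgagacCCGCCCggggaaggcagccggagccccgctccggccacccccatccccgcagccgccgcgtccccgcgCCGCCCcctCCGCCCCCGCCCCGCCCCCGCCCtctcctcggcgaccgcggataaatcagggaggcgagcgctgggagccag
Kcnmb4: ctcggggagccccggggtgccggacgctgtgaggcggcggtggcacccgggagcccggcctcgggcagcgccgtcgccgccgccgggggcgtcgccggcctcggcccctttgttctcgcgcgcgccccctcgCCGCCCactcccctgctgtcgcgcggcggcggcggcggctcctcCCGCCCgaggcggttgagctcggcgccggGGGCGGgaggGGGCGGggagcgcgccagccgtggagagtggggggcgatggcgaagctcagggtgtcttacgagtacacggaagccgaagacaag

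The 3 windows of the lower genes held 18, 12 and 31 CG dinucleotides and 2, 1 and 1 GC boxes, and those of the higher genes 35, 42 and 48 CG dinucleotides and 3, 7 and 4 GC boxes. Of the 135 channel genes, 99 had at least 1 window, 134 windows in all. The median CG count was 8 over the 32 windows of genes lower in all 4 comparisons, with a range from 1 to 36. These windows came from 17 of the 21 such genes. Over the 5 windows of genes higher in at least 1 comparison the median was 35, with a range from 1 to 48. It was 11.5 over the 62 windows of tested channel genes and 7 over the 32851 windows of all genes. GGGCGG was found in 43.8% of the 32 windows, 3 of the 5, 48.4% of the 62 and 35.7% of all windows. The 3 are the printed windows of higher genes, and each printed window of a lower gene holds a box as well. The printed windows therefore do not stand for their sets. Searched on both strands, TATAAA was in 6.25% of the 32 windows (13.6% of all), CACGTG in 6.25% (7.15%), and CAGCACC and GGACAGC, parts of the element bound by the repressor Rest that can share the letters CAGC, in 6.25% (7.14%) and 12.5% (6.56%). None of these last 4 words was in the 5 windows of higher genes. In the same order, they were in 3.23%, 3.23%, 3.23% and 9.68% of the 62 windows of tested channel genes. The 12.5% rests on 4 of the 32 windows. These are counts of letters in short windows and show no binding.

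Of the 40 pore genes of voltage-gated potassium channels, 10 were tested and 3 of them were lower in all 4 comparisons. Kcna2, a Shaker-type delayed rectifier of axons, stood at 16.2, 12.8 and 14.2 FPKM in (-) and 7.56, 5.84 and 6.69 in (+) libraries at 0.2 µM for 12 h. At 0.5 µM for 24 h it stood at 15.1, 16.6 and 16.1 against 4.41, 4.23 and 4.86. No (+) library reached any (-) library. Differences on the log2 scale were -1.0, -1.38, -1.30 and -1.62, each ± 0.20, with adjusted p from 1.22e-06 to 0.000589.

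Its relative Kcna6 was lower by less, at -0.50, -0.65, -0.42 and -0.71 (± 0.12). The call at 0.2 µM for 24 h was lost without the third (+) or the third (-) library (adjusted p = 0.0622 and 0.0609) and after scaling by median ratios (adjusted p = 0.0638). Kcnh2, a slowly deactivating channel best known from the heart, ranged from 1.38 to 3.91 FPKM in (-) and 0.28 to 1.27 in (+) libraries, with log2 differences of -0.84, -1.05, -0.93 and -0.87 (± 0.20).

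The A-type pores Kcnd2 and Kcnd3 open briefly at low voltages and pair with the Kcnip proteins. Kcnd2 stood at 32.2, 34.4 and 34.8 FPKM in (-) against 24.3, 24.4 and 23 in (+) libraries at 0.5 µM for 12 h, and at 30.9, 29.9 and 31.0 against 21.3, 19.6 and 22.5 at 24 h. It was lower at 0.5 µM at both times, by log2 differences of -0.48 and -0.52 (± 0.09), with no overlap. At 0.2 µM the values were -0.15 and -0.02, which missed the threshold (adjusted p = 0.275 and 0.883). Kcnd3 was lower by -0.83 at 0.2 µM and -1.08 at 0.5 µM at 12 h and by -0.61 at 0.5 µM for 24 h (± 0.11). With 0.2 µM for 24 h Kcnd3 stood at 22.7, 23.6 and 17 against 20.2, 18 and 20.5 FPKM, which overlapped (adjusted p = 0.543). Kcnd3 overlaps the antisense gene Kcnd3os.

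Kcna3, Kcnc1 and Kcnq3 passed the test in no comparison, with log2 differences from -0.38 to 0.36 over the 3 genes.

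**Figure D2:**
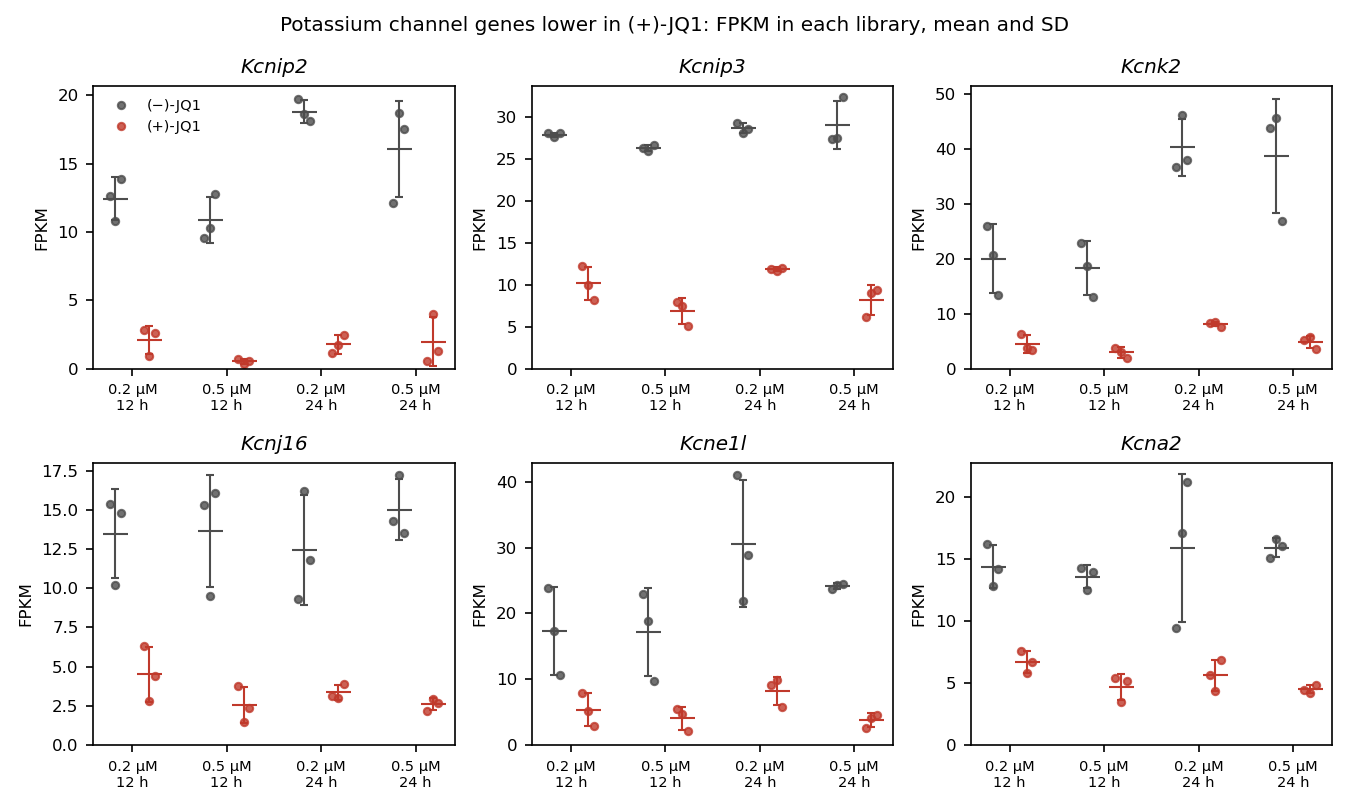
FPKM of Kcnip2, Kcnip3, Kcnk2, Kcnj16, Kcne1l and Kcna2 in each library (points) with the mean and SD of each group of 3, for (-)-JQ1 in grey and (+)-JQ1 in red at each dose and time. In every panel and at every dose and time the red points lie below the grey points, and the grey points of Kcnip3 lie between 25.9 and 32.3.

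All 4 tested inward rectifiers of 15 were lower at 12 h at both doses, and 3 of them in all 4 comparisons. Kcnj3 and Kcnj12 passed the filter through (-) libraries alone. Kcnj10 and Kcnj16 encode subunits of glial channels that pair with each other and take up potassium. Kcnj16 stood at 15.3, 9.53 and 16.1 FPKM in (-) against 3.76, 1.47 and 2.38 in (+) libraries at 0.5 µM for 12 h, and at 14.3, 17.2 and 13.5 against 2.19, 2.93 and 2.71 at 24 h. Its log2 differences were -1.43, -2.07, -1.60 and -2.15, each ± 0.25, and no library overlapped between enantiomers.

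Of Kcnj10 the values are given at both times. At 12 h it stood at 64.9, 56.5 and 65.1 FPKM in (-) and 49.2, 35.6 and 35.0 in (+) libraries at 0.2 µM, and at 65.7, 58.3 and 59.5 against 29, 20.3 and 18.5 at 0.5 µM. At 24 h the values were 46.0, 47.7 and 31.7 against 51.2, 37.2 and 36.0 at 0.2 µM, which overlapped, and 51.6, 48.8 and 43.5 against 40.3, 32.9 and 26.3 at 0.5 µM, which did not. In log2 terms the differences were -0.64, -1.42, -0.01 and -0.54 (± 0.19), with adjusted p of 0.0128, 3.21e-06, 0.986 and 0.0262. The call at 0.5 µM for 24 h was lost after scaling by median ratios (adjusted p = 0.0693) and without any of 4 single libraries (adjusted p from 0.0568 to 0.147), and that at 0.2 µM for 12 h without the second or the third (+) library (adjusted p = 0.0596 and 0.0607).

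The other inward rectifiers were near 1 FPKM. Kcnj3, a subunit of channels opened by G proteins, stood at 0.413 to 1.62 FPKM in (-) and 0.0567 to 0.291 in (+) libraries. If the common step of its values, 0.0573 FPKM, is 1 read, these rest on 211 reads over the 12 (-) and 30 over the 12 (+) libraries. The fitted log2 differences were -0.79, -0.55, -0.97 and -0.82 (± 0.14). Kcnj12, a strong inward rectifier, was lower by -0.82, -1.06, -0.73 and -0.38 (± 0.13), with 370 and 81 reads by the same reckoning. The last of these calls was lost without any of 4 single libraries (adjusted p from 0.0548 to 0.108).

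Of 14 tandem pore domain channels, which pass a background potassium current, 4 were tested. Kcnk2, opened by stretch and by lipids, stood at 22.9, 18.6 and 13.1 FPKM in (-) against 3.82, 2.99 and 1.94 in (+) libraries at 0.5 µM for 12 h. At 24 h it stood at 43.8, 45.5 and 26.8 against 5.19, 5.74 and 3.51. The lowest (-) library, at 13.1, was above the highest (+) library, at 8.43. Differences on the log2 scale were -1.94, -2.29, -2.17 and -2.75, each ± 0.26, with adjusted p from 3.16e-08 to 7.56e-06.

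Kcnk1, a weakly conducting member, was lower by -0.81, -1.01, -1.05 and -1.61 (± 0.18), with 1.11 to 3.62 FPKM in (-) and 0.0765 to 0.917 in (+) libraries. Kcnk10, a relative of Kcnk2, was lower by -0.54 at 0.2 µM and -1.03 at 0.5 µM at 12 h and by -0.68 at 0.5 µM for 24 h (± 0.17), and its groups overlapped at 0.2 µM for 24 h (-0.14, adjusted p = 0.577). The call at 0.2 µM for 12 h was lost without the second (-) or the third (+) library (adjusted p = 0.115 and 0.134). Kcnk3, an acid-sensitive member, passed in none.

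Potassium channels gated by calcium or sodium ions split in direction. Kcnma1, the pore of the large-conductance channel, ran from 1.04 to 1.63 FPKM in (-) and 0.159 to 0.392 in (+) libraries, with log2 differences of -0.81, -0.80, -0.78 and -0.92 (± 0.11). Kcnt1, a sodium-activated pore, was lower by -0.69, -0.65, -1.04 and -1.14 (± 0.11), with 0.528 to 1.64 FPKM against 0 to 0.295. Kcnn1, a small-conductance pore, was lower by -0.65, -0.57, -0.71 and -0.71 (± 0.12). None of these 3 genes overlapped between enantiomers in any comparison, and Kcnma1 and Kcnt1 passed the filter through (-) libraries alone.

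In the other direction, the small-conductance pore Kcnn3 was higher at 0.5 µM for 12 h and at 0.2 µM for 24 h, by 0.40 and 0.48 (± 0.15), and stood at 0.25 and 0.20 in the other 2 comparisons (adjusted p = 0.225 and 0.319). Both calls of Kcnn3 were near the threshold: the first was lost without any of 4 single libraries (adjusted p from 0.05 to 0.244), the second without the first (+) or the third (-) library (adjusted p = 0.05 and 0.0897). Kcnmb4, the neuronal beta subunit of the large-conductance channel, stood at 14, 21.9 and 17 FPKM in (-) against 24.1, 31.2 and 23.7 in (+) libraries at 0.5 µM for 24 h, a log2 difference of 0.56 ± 0.19 (adjusted p = 0.0247), which was lost without the first or the third (-) or the second (+) library (adjusted p = 0.136, 0.0605 and 0.122). At 12 h its groups overlapped at both doses, with differences of -0.19 and -0.20. Kcnmb4 overlaps 2 antisense genes. Kcnn2 passed in none, with differences from -0.35 to 0.03.

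The 2 genes with other names gave little. The noncoding RNA Kcnq1ot1, which silences genes near Kcnq1, stood at 0.465 to 1.57 FPKM over the 24 libraries and passed in none. Kcnrg was higher at 0.2 µM for 24 h only among the 4 comparisons, at 1.12, 1.48 and 0.803 FPKM in (+) against 0.262, 0.38 and 0.487 in (-) libraries (0.62 ± 0.16, adjusted p = 0.0041), and it lies over Dleu2 and Trim13. The lowest of these (-) values and the highest of these (+) values came from the 2 libraries rich in Mir5105, without which the call was lost (0.45, adjusted p = 0.0717).

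The sodium channel genes were expressed at low levels, and 5 of 14 were tested. Of the pore subunits, Scn3a, prominent in embryonic brain, stood at 1.14, 1.03 and 0.912 FPKM in (-) and 0.253, 0.192 and 0.27 in (+) libraries at 0.2 µM for 12 h. With 0.5 µM for 24 h it stood at 1.01, 0.905 and 1.19 against 0.168, 0.167 and 0.126. All (-) libraries were above all (+) libraries. The log2 differences were -0.71, -0.76, -0.72 and -0.82, each ± 0.09, with adjusted p of at most 7.27e-06.

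Scn2a1, the gene now named Scn2a, encodes a main pore of excitatory neurons. It stood at 1.0, 0.952 and 1.1 FPKM in (-) and 0.307, 0.254 and 0.298 in (+) libraries at 0.5 µM for 12 h, and at 1.18, 1.15 and 1.05 against 0.494, 0.456 and 0.228 at 24 h. The groups were apart in all 4 comparisons. Its log2 differences were -0.57, -0.65, -0.51 and -0.61 (± 0.09). Scn2a1, Scn3a and Scn2b, 3 of the 4 sodium genes called lower, passed the filter through (-) libraries alone. Scn8a, the pore of mature axon initial segments, was the highest of the pores but passed in no comparison: it ranged from 2.27 to 4.47 FPKM in (-) and from 2.7 to 5.08 in (+) libraries, with differences from 0.00 to 0.27 (± 0.18).

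Of the beta subunits, which anchor the pore and act in cell adhesion, Scn3b stood at 3.63, 2.82 and 3.26 FPKM in (-) and 1.93, 1.85 and 1.41 in (+) libraries at 0.5 µM for 12 h, and at 4.47, 3.71 and 3.67 against 1.81, 2.49 and 1.83 at 24 h. It was lower by -0.41, -0.64, -0.47 and -0.70 (± 0.14), and its calls at 0.2 µM lay near the threshold. At 12 h 5 of the 6 single omissions gave differences from -0.44 to -0.35 and an adjusted p from 0.0561 to 0.138, and scaling by median ratios one of 0.0902. At 0.2 µM for 24 h the call was lost without either second library (adjusted p = 0.0757 and 0.0978) and without the 2 libraries rich in Mir5105 (adjusted p = 0.0893). Scn2b was lower by -0.35, -0.49, -0.38 and -0.33 (± 0.12). Only its call at 0.5 µM for 12 h held in all alternatives, and at 0.5 µM for 24 h its groups overlapped (1.21, 1.03 and 0.781 FPKM against 0.588, 0.792 and 0.404).

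**Figure D3:**
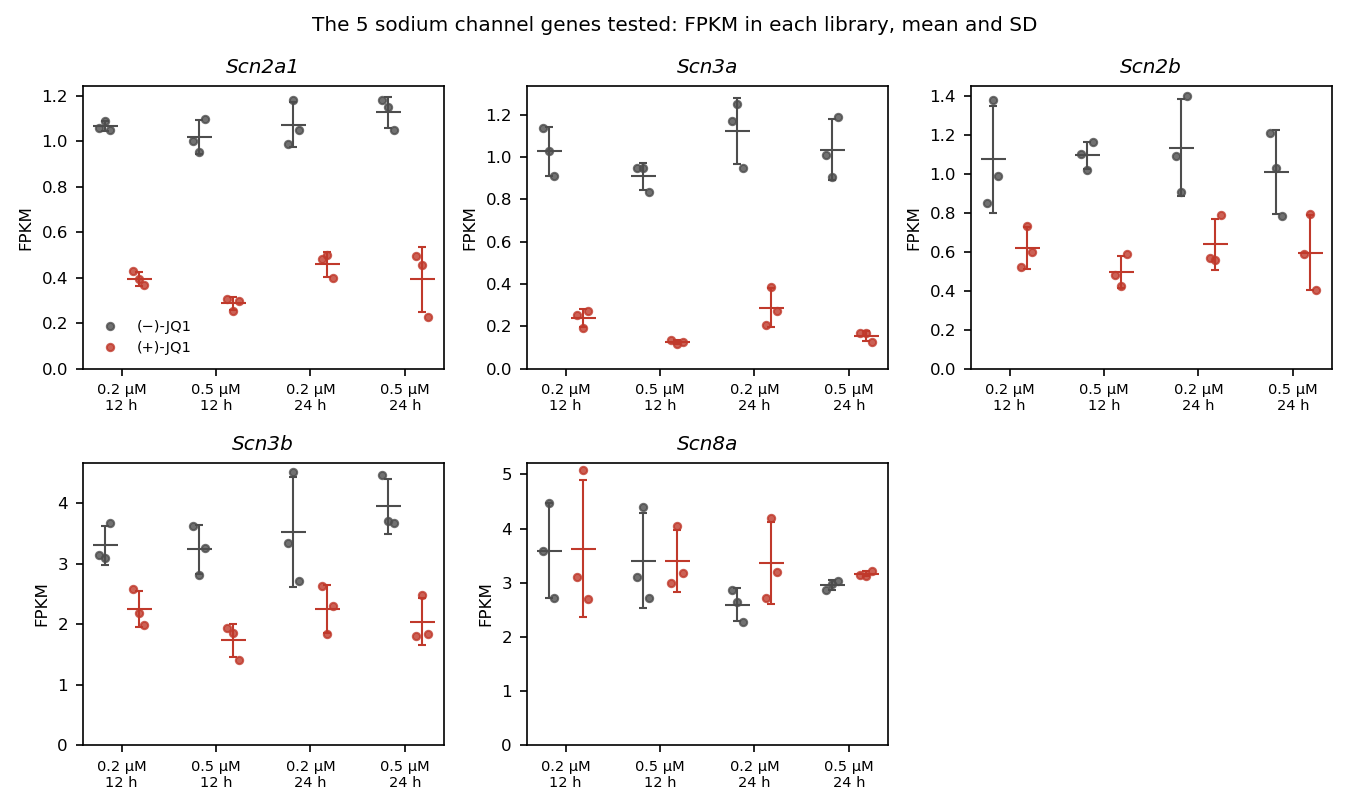
FPKM of the 5 tested sodium channel genes in each library (points) with the mean and SD of each group of 3, for (-)-JQ1 in grey and (+)-JQ1 in red at each dose and time. Scn2a1, Scn3a and Scn3b separate at each dose and time, Scn2b overlaps at 0.5 µM for 24 h, and Scn8a overlaps except at 0.5 µM for 24 h, where the difference was 0.08.

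The calcium channel genes had no member that was lower in all 4 comparisons. Of those tested, Cacna1c, Cacna2d2, Cacnb4 and Cacng5 passed the filter only because of (-) libraries, so the filter bears on their calls. Of 10 pore genes (the Cacna1 genes) 5 were tested. Cacna1b, the N-type pore that drives transmitter release, was higher in all 4. It stood at 0.937, 1.22 and 1.09 FPKM in (-) and 1.95, 2.16 and 1.62 in (+) libraries at 0.2 µM for 12 h, and at 0.687, 0.924 and 1.4 against 1.92, 1.82 and 2.41 at 0.5 µM for 24 h. The groups did not overlap in any comparison. In log2 terms the differences were 0.48, 0.65, 0.68 and 0.62 (± 0.16), with adjusted p of 0.0268, 0.00221, 0.00207 and 0.00359. With 0.2 µM for 12 h the call was lost without any of 4 single libraries (adjusted p from 0.0627 to 0.105), and at 0.2 µM for 24 h when only those 6 libraries were fitted (adjusted p = 0.0517).

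The L-type pore Cacna1c, which links voltage to gene expression, was lower by -0.35, -0.49 and -0.69 (± 0.13) at 0.2 and 0.5 µM at 12 h and 0.5 µM at 24 h, and stood at -0.20 at 0.2 µM for 24 h (adjusted p = 0.234). Its call at 0.2 µM for 12 h (adjusted p = 0.0484) was lost without any of 5 single libraries. Cacna1a, the P/Q-type pore, was lower at 0.5 µM by -0.44 at 12 h and -0.37 at 24 h (± 0.14), and the latter call was lost without any of 4 single libraries (adjusted p from 0.105 to 0.137) and after scaling by median ratios (adjusted p = 0.061). The T-type pores Cacna1g and Cacna1h passed in none.

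Both tested alpha2delta genes, whose products carry pores to the surface, changed, in opposite directions. Cacna2d1 stood at 1.01, 1.43 and 1.09 FPKM in (-) against 3.14, 2.73 and 3.28 in (+) libraries at 0.2 µM for 24 h, and at 1.76, 0.928 and 1.24 against 3.99, 3.33 and 3.78 at 0.5 µM. At 12 h it stood at 1.41, 1.3 and 1.44 against 1.69, 2.5 and 1.93 at 0.5 µM, and its groups overlapped at 0.2 µM. It was higher at 24 h, by 0.90 and 1.04 (± 0.14, adjusted p = 3.53e-05 and 3.47e-06), and at 12 h the values were 0.14 and 0.34 (adjusted p = 0.516 and 0.0561). Cacna2d2 was lower by -0.33 at 0.2 µM for 12 h and by -0.43 and -0.73 at 24 h (± 0.12), and its value at 0.5 µM for 12 h was -0.27 (adjusted p = 0.0727). Its 2 calls at 0.2 µM were lost in several alternatives, among them scaling by median ratios at 12 h (adjusted p = 0.0637) and the omission of the 2 libraries rich in Mir5105 at 24 h (adjusted p = 0.051).

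Among the cytoplasmic beta subunits, Cacnb3 was lower by -0.50, -0.58 and -0.58 (± 0.15) in the comparisons other than 0.2 µM at 24 h, where it stood at -0.36 (adjusted p = 0.0752). Without any of 3 single libraries its call at 0.2 µM for 12 h was lost (adjusted p from 0.0733 to 0.0924). Cacnb4 was lower in the comparisons other than 0.2 µM at 12 h (-0.34, adjusted p = 0.0552), by -0.40, -0.39 and -0.58 (± 0.13). Its call at 0.5 µM for 12 h was lost without either of 2 single libraries (adjusted p = 0.0548 and 0.0882), and at 0.2 µM for 24 h without any of 4 (adjusted p from 0.0533 to 0.113) or without the 2 libraries rich in Mir5105 (adjusted p = 0.0881). Cacnb1, which overlaps Rpl19, passed in none.

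Of the Cacng genes, Cacng4, an AMPA receptor partner of glial precursors and young neurons, stood at 27.9, 29.4 and 29.4 FPKM in (-) against 10.1, 11.1 and 11.6 in (+) libraries at 0.5 µM for 12 h. It was lower by -0.73 and -1.33 at 12 h and by -0.56 at 0.5 µM for 24 h (± 0.16). The last call was lost without the second (+) library (-0.38, adjusted p = 0.0696) and when only those 6 libraries were fitted (adjusted p = 0.0543). At 0.2 µM for 24 h its groups overlapped (-0.17, adjusted p = 0.437). Cacng7 and Cacng8 passed in none, with differences from -0.33 to -0.17 and from -0.51 to -0.45.

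Cacng5, another AMPA receptor partner, was the only channel gene that passed a test for a time difference of the enantiomer effect. It passed the filter only because of (-) libraries: 6 of these, all at 12 h, reached 1 FPKM, against 1 (+) library. At 12 h it stood at 2.66, 2.05 and 3.96 FPKM in (-) against 0.983, 0.749 and 1.26 in (+) libraries at 0.2 µM, and at 3.15, 2.25 and 3.5 against 0.555, 0.508 and 0.764 at 0.5 µM. At 24 h all 12 libraries lay between 0.126 and 0.571 FPKM and the groups overlapped. The fitted log2 differences were -0.94 and -1.29 at 12 h (± 0.16, adjusted p = 0.000142 and 1.76e-06) and -0.03 and -0.15 at 24 h (adjusted p = 0.915 and 0.508). The time difference at 0.5 µM was 1.14 ± 0.23 (adjusted p = 0.0264). On this scale the (-) level sets a floor: had the (+) libraries been at 0, the difference at 0.5 µM could not have gone below -1.97 at 12 h and -0.46 at 24 h.

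The call on that time difference was lost with a pseudocount of 0.1 (1.65, adjusted p = 0.254) and without any of 9 of its 12 libraries (adjusted p from 0.0578 to 0.0981). At 0.2 µM the time difference was 0.91 ± 0.23 (adjusted p = 0.276). In this comparison 0.326% of all genes tested were called in either direction at 0.5 µM, and 0.0217% at 0.2 µM, where 0 of 51 channel genes passed (9 at an unadjusted p under 0.05, against 10 at 0.5 µM). With the replicate number as a block, Kcnj10 was called as well at 0.5 µM (0.88 ± 0.18, adjusted p = 0.033). Without the block its adjusted p was 0.223.

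**Figure D4:**
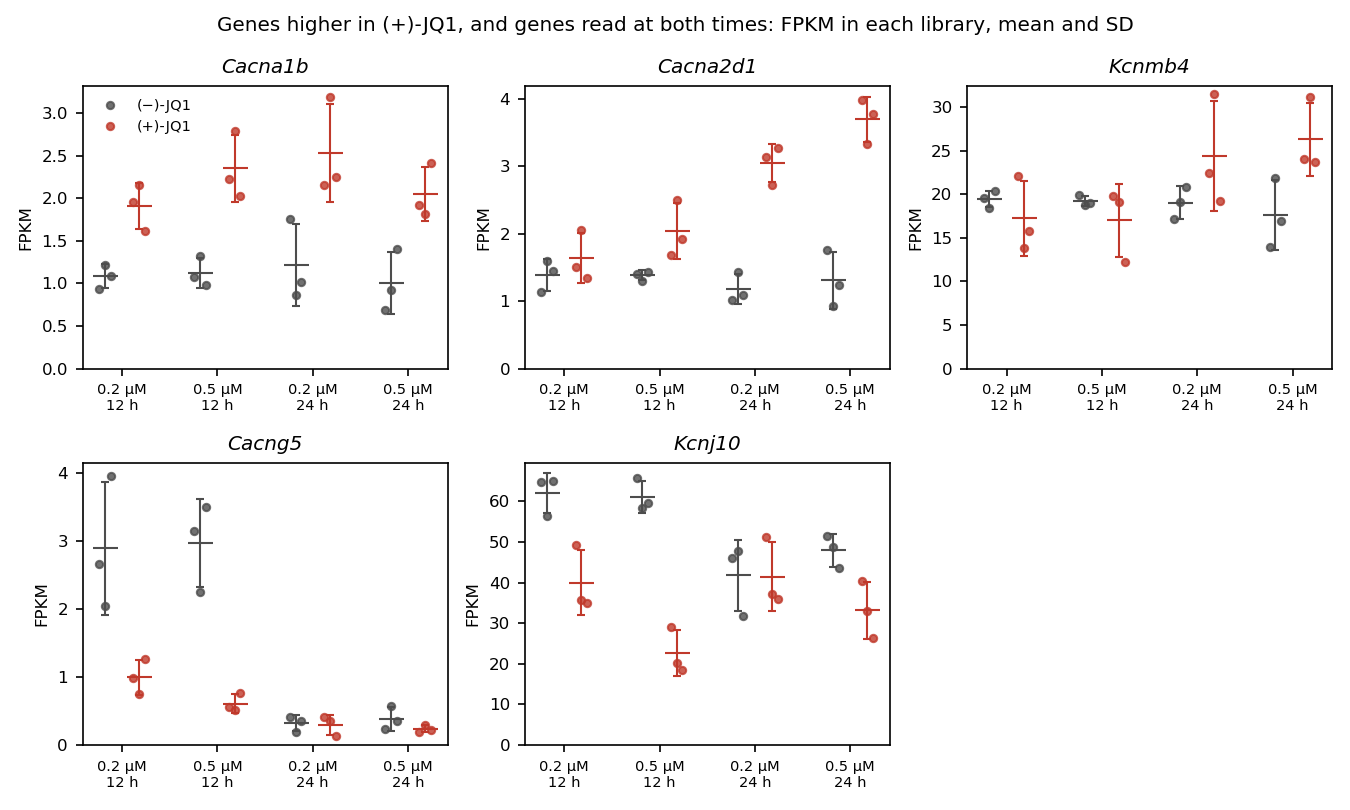
FPKM of Cacna1b, Cacna2d1, Kcnmb4, Cacng5 and Kcnj10 in each library (points) with the mean and SD of each group of 3, for (-)-JQ1 in grey and (+)-JQ1 in red at each dose and time. Red lies above grey throughout for Cacna1b and at 24 h for Cacna2d1, and the grey points of Cacng5 drop from between 2.05 and 3.96 at 12 h to at most 0.571 at 24 h.

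No channel gene passed the test for a difference of the effect between doses. At 12 h 0 of 51 passed (4 at an unadjusted p under 0.05), beside 0.0435% of all genes, and at 24 h 0 of 51 (8 unadjusted), beside 0.290%. The lowest adjusted p was that of Kcnd2 at 24 h, with a difference between doses of -0.49 (95% interval from -0.77 to -0.22, adjusted p = 0.179). For Kcnk2 at 24 h the interval ran from -1.34 to 0.18 and for Kcnip2 from -0.72 to 1.08, so that both of these reached past 1 log2 unit. The interval of Kcnd2 lay below 0, but its difference between doses did not pass after adjustment over all genes tested. That a gene passed at 0.5 and not at 0.2 µM, as Kcnd2 did, is thus not shown to be a difference between the doses.

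Between 12 and 24 h in (-)-JQ1 alone, taken over both doses, 6 channel genes were higher at 24 h and 7 lower, beside 11.0% and 4.62% of all genes tested. Higher were Kcnk2 (1.03 ± 0.18), Kcnk1 (0.61 ± 0.13), Cacnb4 (0.56 ± 0.09), Kcnt1 (0.43 ± 0.08), Kcnab1 (0.32 ± 0.10) and Cacna2d2 (0.25 ± 0.08). Lower were Cacng5 (-1.52 ± 0.11), Kcnj10 (-0.46 ± 0.13), Kcnn2 (-0.42 ± 0.13), Kcnj12 (-0.40 ± 0.09), Kcnd3 (-0.38 ± 0.08), Kcnc1 (-0.36 ± 0.08) and Kcnd2 (-0.22 ± 0.07). Over the same time in (-), 4 of 10 oligodendrocyte lineage markers were higher and 1 lower, and 4 of 7 astrocyte markers were higher and 0 lower. Of 7 neuron markers 3 were higher and 0 lower, and of 8 progenitor markers 3 were higher and 1 lower. The part of these marker changes in the channel results was not tested. The calls of Cacna2d2, Kcnab1, Kcnd2 and Kcnn2 were each lost without any of 5 or more single libraries, and that of Kcnj10 without the third (-) library at 0.2 µM for 24 h (adjusted p = 0.0583). The count of lower genes was 4 without the third (-) library at 0.2 µM for 24 h.

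Genes outside the name rule that work with these channels were read from a list of 35 symbols, of which 34 were in the files and 25 tested. In the 4 comparisons 9, 14, 12 and 13 were lower and 1, 1, 4 and 3 higher, with medians of -0.35, -0.52, -0.34 and -0.47, beside the same 19.6%, 26.1%, 21.8% and 24.5% lower and 8.23%, 12.2%, 11.0% and 13.7% higher of all genes tested. Lower in all 4 were the Kcnd partners Dpp6 and Dpp10, the leak channel Nalcn, and the anchors Ank3 and Nfasc of axon initial segments and nodes. So were Ank2, a relative of Ank3, the secreted or membrane-bound Lgi3 and Lgi4, and the sodium channel partner Fgf12. With 0.5 µM for 24 h, mean Nalcn was 1.24 FPKM in (+) against 13.5 in (-) libraries (-2.69 ± 0.11) and Dpp6 4.01 against 18 (-1.93 ± 0.16). Tpcn1, a lysosomal channel, was higher in all 4, at 49.2 against 24.3 FPKM in the same comparison (0.98 ± 0.10). Rest, the repressor of many neuronal channel genes outside neurons, passed in none, with differences of 0.37, 0.30, 0.38 and 0.11.

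The remaining 84 channel genes were not tested: 78 never reached 1 FPKM, 7 of which were at 0 in every library, and 6 reached it in only 1 or 2 libraries. Their highest value was 1.46 FPKM. They hold well-known neuronal genes. Scn1a had medians of 0.127 FPKM in (-) and 0.0285 in (+) libraries, Cacna1d 0.828 and 0.391, and Cacna2d3 0.67 and 0.422, while Scn4b, Kcna1, Cacna1e, Kcnip4, Cacng2 and Cacnb2 had medians of at most 0.684 in either. Without a filter, 14, 14, 12 and 15 of the 77 genes with any value were lower and 3, 1, 1 and 1 higher, beside 14%, 18.5%, 16.5% and 18.9% lower and 5.03%, 7.83%, 6.78% and 8.65% higher among all genes so fitted. Chosen after their values were seen, Kcnc2, Kcnh8, Kcnj11 and Kcnq5 had all 12 (-) libraries above all 12 (+) libraries, for Kcnq5 0.354 to 0.787 FPKM against 0.0597 to 0.224. How many of all genes separate in this way was not counted, so these genes are examples only.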

How the data were processed

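Poly(A) RNA from 24 libraries (8 groups of 3) was primed with random hexamers and sequenced as single 50-base reads, per the labels' protocols. FastQC, TopHat2 and the build mm9 are named, per the submitters' processing notes. Their versions, the program and annotation behind the FPKM, and any scaling between libraries are not given in the sources used here, nor is the strand. The authors deposited FPKM per gene symbol, 26694 per file. Symbols listed more than once (58 entries) were dropped, so that 26636 remained.

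The 13801 genes that reached 1 FPKM in 3 or more libraries were fitted as log2(FPKM + 1) with limma 3.58.1 in R 4.3.3, with 1 mean per group, 16 residual degrees of freedom, and trend and robust moderation. Calls were made below an adjusted p of 0.05 (Benjamini-Hochberg, over the 13801 genes). The 9 comparisons were 4 of enantiomers, 2 differences between doses, 2 between times, and time within (-)-JQ1. The fit was tested on simulated data. Relative depth came from low genes: 1821 of 2306 had all values at whole multiples of 1 step, to within 1%. Tables were handled with Python 3.11.15 and pandas 2.3.3, and drawn with matplotlib 3.10.9.

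The members, the lists of channel partners and of cell type markers (neural progenitor, oligodendrocyte lineage, astrocyte, neuron, microglia, endothelium, pericyte and fibroblast, erythroid, muscle) and the tests were chosen with earlier results of these data known. Genes named were the called members of at least 1 FPKM with the largest change (6 potassium, 3 sodium and 3 calcium per comparison), a panel of textbook channel genes, and members called in a test of a difference between doses or times; others were named to account for the tested members. Some of these genes are not reported here by name, though the counts include them. Same-numbered libraries of the 2 enantiomers deviated together with r from -0.34 to 0.36, over 0.1 in 7 of 12 pairs, so the numbers were not taken to pair them. Overlapping genes and promoters came from RefSeq for GRCm38.p6, in which all 135 symbols were matched. Alternatives were the pseudocount, no filter or a filter on the mean, scaling by median ratios, a fit without trend, only the 6 libraries compared, a replicate block, leaving out each library, and, chosen after seeing the data, leaving out the 2 libraries rich in Mir5105.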

Additional observations from a re-analysis of the deposited data

Results flagged for a closer look

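For Cacng5 the test of a time difference of the enantiomer effect passed at 0.5 µM, with 1.14 ± 0.23 on the log2(FPKM + 1) scale (limma, adjusted p = 0.0264). The level in (-) libraries itself was lower at 24 h, where this scale allows no difference below -0.46, against -1.97 at 12 h. It was the 1 channel gene of 51 called in any of the 4 tests of a difference between doses or times. Its groups of 3 libraries were apart at 12 h (2.25 to 3.5 FPKM in (-) against 0.508 to 0.764 in (+)) and overlapped at 24 h, when all 12 libraries were at most 0.571 FPKM. The call was lost with a pseudocount of 0.1 and without any of 9 single libraries. Cacng5 also passed the filter only because of (-) libraries, those at 12 h.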

How the results depend on the processing

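For the 51 tested channel genes, no called value changed direction in the alternatives run. Of their 218 values (the 4 comparisons of enantiomers, and the other comparisons where called), 145 were called, and 32 of these calls were lost in at least 1 alternative. Leaving out single libraries gave 22 to 27, 31 to 33, 21 to 23 and 28 to 30 lower channel genes (30, 32, 23 and 32 with all libraries) and 1 to 3, 2 to 3, 4 to 7 and 3 to 4 higher ones (2, 3, 5 and 4), in the order 0.2 and 0.5 µM at 12 h, then at 24 h. With no filter, 5 genes were higher at 0.2 µM and 12 h (2 with it) and 35 lower at 0.2 µM and 24 h (23 with it), out of 128 genes fitted in place of 51. Scaling by median ratios gave 5 higher at 0.5 µM and 12 h (3 without it). Fitting only the 6 libraries at 0.2 µM and 24 h, on fewer genes and samples, gave 13 lower and 2 higher (23 and 5). For the time difference at 0.5 µM, a pseudocount of 0.1 gave 0 genes in place of 1, the replicate block gave 2, and leaving out single libraries 0 to 1. The block left the counts of lower genes at 31, 32, 23 and 32 changed no other count by over 1.5 times, and of single genes also called Cacnb4 at 0.2 µM and 12 h. Between times in (-)-JQ1, leaving out single libraries gave 4 to 7 lower genes (7 with all; 4 without the third (-) library at 0.2 µM and 24 h) and 4 to 8 higher (6 with all). Where no such construction is named, the cause was not tested. FPKM hide the read number, and genes near 1 FPKM such as Kcnj3 rest on few reads.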
